A study of Mus musculus with 12 samples.

Results

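The immediate early genes and the feedback genes of the ERK pathway are 41 mouse genes chosen by name: EGR, AP-1 and NR4A transcription factors, other genes of the first transcriptional wave, dual specificity phosphatases, Sprouty and SPRED inhibitors, and growth factor response genes. All 41 had a value and passed the filter on dim genes, out of 19938 genes with a value and 14953 tested. They were measured in conventional dendritic cells of mouse spleen, the antigen-presenting cells that fall into a cDC1 and a cDC2 branch. Mature cells of each branch were sorted from mice of 3 genotypes: wild type (WT), knockout (KO) of Flt3, the gene of the receptor tyrosine kinase FLT3, and KO of its ligand, Flt3L. The mice were at steady state, and each of the 6 groups had 2 arrays described as biological replicates. Every spleen, WT included, was digested with collagenase B and DNAse before the cells were sorted. The sources used here do not give the strain, the age, the deleted parts of the genes or how many mice went into an array. The p-values therefore speak only of the spread between arrays described as biological replicates. How much of it is spread between mice is not known.

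Immediate early genes are switched on within minutes of a stimulus, without new protein synthesis. A receptor tyrosine kinase such as FLT3 can start this through RAS, RAF, MEK and ERK, and ERK then acts on serum response factor and its ETS partners at the promoters of genes such as Egr1 and Fos. Part of the output closes the loop: dual specificity phosphatases remove the activating phosphates from ERK and related kinases, and Sprouty and SPRED proteins restrain RAS and RAF. Toll-like receptor, cytokine and stress signals reach the same genes, and so does the digestion of a tissue into single cells.

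The arrays were alike in scale, with median intensities from 59.0 to 63.0. The exception was replicate 1 of WT cDC1, which had a lower quartile of 25.7 against 23.3 to 24.3 on the other arrays. The log2 difference between replicates had a standard deviation (SD) over all tested genes of 0.210 in WT cDC1 and of 0.131 to 0.154 in the other groups. Over the 41 genes it was 0.151 in WT cDC1 and 0.101 to 0.153 elsewhere. Genes that define each branch were on the labelled side: 10 of 10 cDC1 markers were higher and 10 of 10 cDC2 markers lower in WT cDC1 than in WT cDC2. Flt3, the receptor gene, fell by 2.66 ± 0.07 (SE) on the log2 scale in Flt3 KO cDC1, where the value after ± is, here as in all later differences, limma's standard error from 2 arrays per group, and fell by 2.30 ± 0.07 in Flt3 KO cDC2. In sorted samples such as these, fewer cells that express a gene and less RNA per cell cannot be told apart.

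The genotypes were first set side by side in the comparison of cDC1 with cDC2, which asks how the branches differ in these genes. Most of the genes that differed were lower in cDC1. With log2 differences of cDC1 minus cDC2 fitted in limma and an adjusted p under 0.05 as the threshold, 5 of the 41 genes were higher and 20 lower in WT, where 21% of all tested genes were higher and 18.4% lower. Flt3 KO cells had 5 higher and 23 lower, against 19.1% and 16.4% of all genes, and Flt3L KO cells had 3 higher and 20 lower, against 18.9% and 15.9%. Averaged over the genotypes, 6 were higher and 27 lower, against 28.1% and 23.5% of all genes. The median log2 difference of the 41 genes in that average was -0.25, and that of all genes was 0.027. In all 3 genotypes 3 genes were higher (Egr3, Dusp2 and Dusp4) and 16 lower in cDC1 (Fosb, Fosl2, Jun, Atf3, Klf2, Klf6, Myc, Ier2, Zfp36, Dusp10, Spred1, Ccnd1, Ccnd2, Pim1, Plk2 and Rgs1). Of all genes, 13.3% were higher and 11.5% lower in all 3. Without replicate 1 of WT cDC1 the averaged counts were 6 higher and 25 lower.

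The polo-like kinase Plk2, a stress-responsive regulator of the cell cycle, differed most between the branches among the 41 genes. Plk2 intensity was 73.2 and 94.2 in WT, 136 and 134 in Flt3 KO and 151 and 161 in Flt3L KO on the cDC1 arrays. On the cDC2 arrays it was 604 and 654 in WT, 659.9 and 614 in Flt3 KO and 824 and 694 in Flt3L KO. The lowest cDC2 array lay far above the highest cDC1 array. Averaged over genotypes the difference was -2.48 ± 0.07 on the log2 scale, 5.58-fold lower in cDC1, with an adjusted p of 3.23e-12. The WT cells alone gave -2.92 ± 0.12, the Flt3 KO cells -2.24 ± 0.12 and the Flt3L KO cells -2.28 ± 0.12. Its relative Plk3, also a stress-responsive kinase, was lower in WT cDC1 by 0.24 ± 0.09, and its differences in Flt3 KO (-0.09) and Flt3L KO (-0.11) did not pass.

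The products of the AP-1 genes pair to bind one DNA element. Of these genes 5 of 7 were lower in cDC1 averaged over genotypes and none was higher, against 23.5% and 28.1% of all genes. Jun intensity was 849 and 982 in WT, 1171 and 1164 in Flt3 KO and 1128 and 1252 in Flt3L KO in cDC1, and 3129.6 and 3104 in WT, 3448 and 3738 in Flt3 KO and 3632 and 3256 in Flt3L KO in cDC2. Every cDC2 array was above every cDC1 array, and the averaged difference was -1.64 ± 0.05, or 3.12-fold lower in cDC1 (adjusted p = 2.22e-11). Fosl2, which encodes the FOS-related partner FRA-2, was at 1101 and 1165 in WT, 1132 and 1184 in Flt3 KO and 879 and 977 in Flt3L KO in cDC1. In cDC2 Fosl2 was at 2226 and 2174 in WT, 2418 and 2130.4 in Flt3 KO and 1942 and 1838 in Flt3L KO, again without overlap, for a difference of -0.99 ± 0.05. Fosb, another FOS family member, was lower by 0.42 ± 0.05, and Atf3, a stress-induced partner that often represses, by 0.45 ± 0.05. Junb was lower by 0.14 ± 0.05 in the average (adjusted p = 0.0454) and did not pass in any single genotype. Fos itself had values of -0.04, -0.08 and -0.01 in WT, Flt3 KO and Flt3L KO, none past the threshold. Jund passed in Flt3 KO (-0.25) but not in WT (-0.20) or Flt3L KO (0.14).

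The EGR zinc finger factors split. Egr3 was higher in cDC1 in all 3 genotypes, by 0.74 ± 0.05 in the average, or 1.67-fold, with an adjusted p of 2.04e-08. Egr1 and Egr2 did not pass in any genotype or in the average, with averaged values of -0.09 ± 0.05 and 0.02 ± 0.06. The NR4A nuclear receptors, which mark recent antigen or growth factor stimulation in lymphocytes, differed by small amounts: Nr4a1 was lower by 0.15 ± 0.04, Nr4a3 lower by 0.29 ± 0.06 and Nr4a2 higher by 0.14 ± 0.04 in the average. Nr4a1 and Nr4a2 passed in no single genotype.

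The other early transcription factors, 3 in number, were all lower in cDC1 in every genotype, against 11.5% of all genes. Myc, a driver of growth and ribosome production, had an intensity of 161 and 154 in WT, 148 and 166 in Flt3 KO and 125 and 122 in Flt3L KO in cDC1. In cDC2 Myc was at 346 and 368 in WT, 321 and 343 in Flt3 KO and 241 and 309 in Flt3L KO, with no overlap between the branches. The averaged Myc difference was -1.14 ± 0.06, or 2.20-fold lower in cDC1 (adjusted p = 3.81e-09). Klf2, a Krüppel-like factor linked to quiescence and migration of lymphocytes, was lower by 0.48 ± 0.04, and Klf6, an early injury-response factor, by 0.38 ± 0.04.

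Of the small early response genes, Ier2, a nuclear protein induced by serum, was at 263 and 289 in WT, 281 and 304 in Flt3 KO and 252 and 238 in Flt3L KO in cDC1. In cDC2 Ier2 was at 373 and 361 in WT, 431 and 405 in Flt3 KO and 374 and 389 in Flt3L KO, above every cDC1 array. Its averaged difference was -0.52 ± 0.05 (adjusted p = 5.70e-07). Phlda1, a pleckstrin homology protein, ran the other way, higher in cDC1 by 0.33 ± 0.05 in the average. Ier5 was lower by 0.18 ± 0.04 in the average and passed in WT (-0.27) and Flt3 KO (-0.24) but not in Flt3L KO (-0.01). Ier3, which modulates ERK signalling and survival, was lower by 0.20 ± 0.06 in the average and passed in Flt3L KO (-0.53, adjusted p = 0.000783) but not in WT (adjusted p = 0.999) or Flt3 KO (-0.08). Zfp36, which encodes the mRNA decay factor tristetraprolin, was lower by 0.33 ± 0.04. The deadenylation cofactors Btg1 and Btg2 did not pass, with averaged values of -0.11 ± 0.06 and 0.02 ± 0.05.

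The feedback phosphatases went both ways. Dusp2, a nuclear phosphatase of activated immune cells, was higher in cDC1 by 0.32 ± 0.05, and Dusp4, its nuclear relative, by 0.44 ± 0.07. Dusp1, which acts mainly on p38 and JNK, was lower by 0.25 ± 0.07, the ERK-specific nuclear Dusp5 by 0.28 ± 0.05, Dusp10 by 0.34 ± 0.05, and the cytoplasmic ERK phosphatase Dusp6 by 0.80 ± 0.09. Dusp1 passed in 1 genotype, with values of -0.23 in WT, -0.33 in Flt3 KO and -0.20 in Flt3L KO. By genotype the Dusp6 difference was -0.18 ± 0.16 in WT (adjusted p = 0.389), -0.59 ± 0.16 in Flt3 KO (adjusted p = 0.00998) and -1.63 ± 0.16 in Flt3L KO (adjusted p = 3.26e-06).

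Of the inhibitors of RAS and RAF, Spred1 differed most. Spred1 was at 116 and 114 in WT, 135 and 134 in Flt3 KO and 89.9 and 103 in Flt3L KO in cDC1 and at 247 and 256 in WT, 238 and 254 in Flt3 KO and 183 and 228 in Flt3L KO in cDC2. No arrays overlapped, and the averaged difference was -1.03 ± 0.06, or 2.04-fold lower in cDC1 (adjusted p = 6.46e-09). Spry2, a Sprouty protein, was a dim gene, near or below the median of the arrays, at 40.2 and 30.6 in WT, 32.5 and 28.7 in Flt3 KO and 34.4 and 41.0 in Flt3L KO in cDC1. In cDC2 Spry2 was at 48.4 and 41.3 in WT, 52.0 and 60.2 in Flt3 KO and 56.6 and 55.3 in Flt3L KO; the highest cDC1 arrays came close to the lowest cDC2 arrays. Its averaged difference was -0.60 ± 0.08 (adjusted p = 2.22e-05). Spry4 was lower by 0.17 ± 0.05 in the average and passed in Flt3 KO (-0.41) but not in WT (0.01) or Flt3L KO (-0.10), and Spry1 was higher in cDC1 by 0.23 ± 0.05. Spred2 differed by 0.01 ± 0.06 and did not pass; its second probe set gave -0.08.

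All 5 genes for cyclins and kinases were lower in cDC1 in the average, against 23.5% of all genes. Ccnd2 encodes a D-type cyclin, which carries mitogen signals into the cell cycle. Its intensity was 323 and 246 in WT, 313 and 299.6 in Flt3 KO and 317 and 308 in Flt3L KO in cDC1 and 677 and 681 in WT, 568 and 502 in Flt3 KO and 761 and 687 in Flt3L KO in cDC2. These arrays did not overlap, and the averaged difference was -1.09 ± 0.07 (adjusted p = 1.02e-08). Ccnd1, the related cyclin D1 gene, was at 1703 and 1523 in WT, 1385 and 1548 in Flt3 KO and 1419 and 1381 in Flt3L KO in cDC1. In cDC2 Ccnd1 was at 2342 and 2802 in WT, 2193 and 2137 in Flt3 KO and 2431 and 2327 in Flt3L KO, all above cDC1, for a difference of -0.67 ± 0.06. Pim1, a survival kinase, was lower by 0.42 ± 0.04. Rgs1, which shortens signals of chemokine receptors, was at 3165 and 3414 in WT, 3454 and 3567 in Flt3 KO and 2911 and 3360.1 in Flt3L KO in cDC1. In cDC2 Rgs1 was at 5237 and 5492 in WT, 5148 and 5338 in Flt3 KO and 5863 and 6223 in Flt3L KO, also without overlap, and the averaged difference was -0.74 ± 0.05. Rgs2, its relative, had an averaged value of -0.05 ± 0.04 and did not pass.

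**Figure D1:**
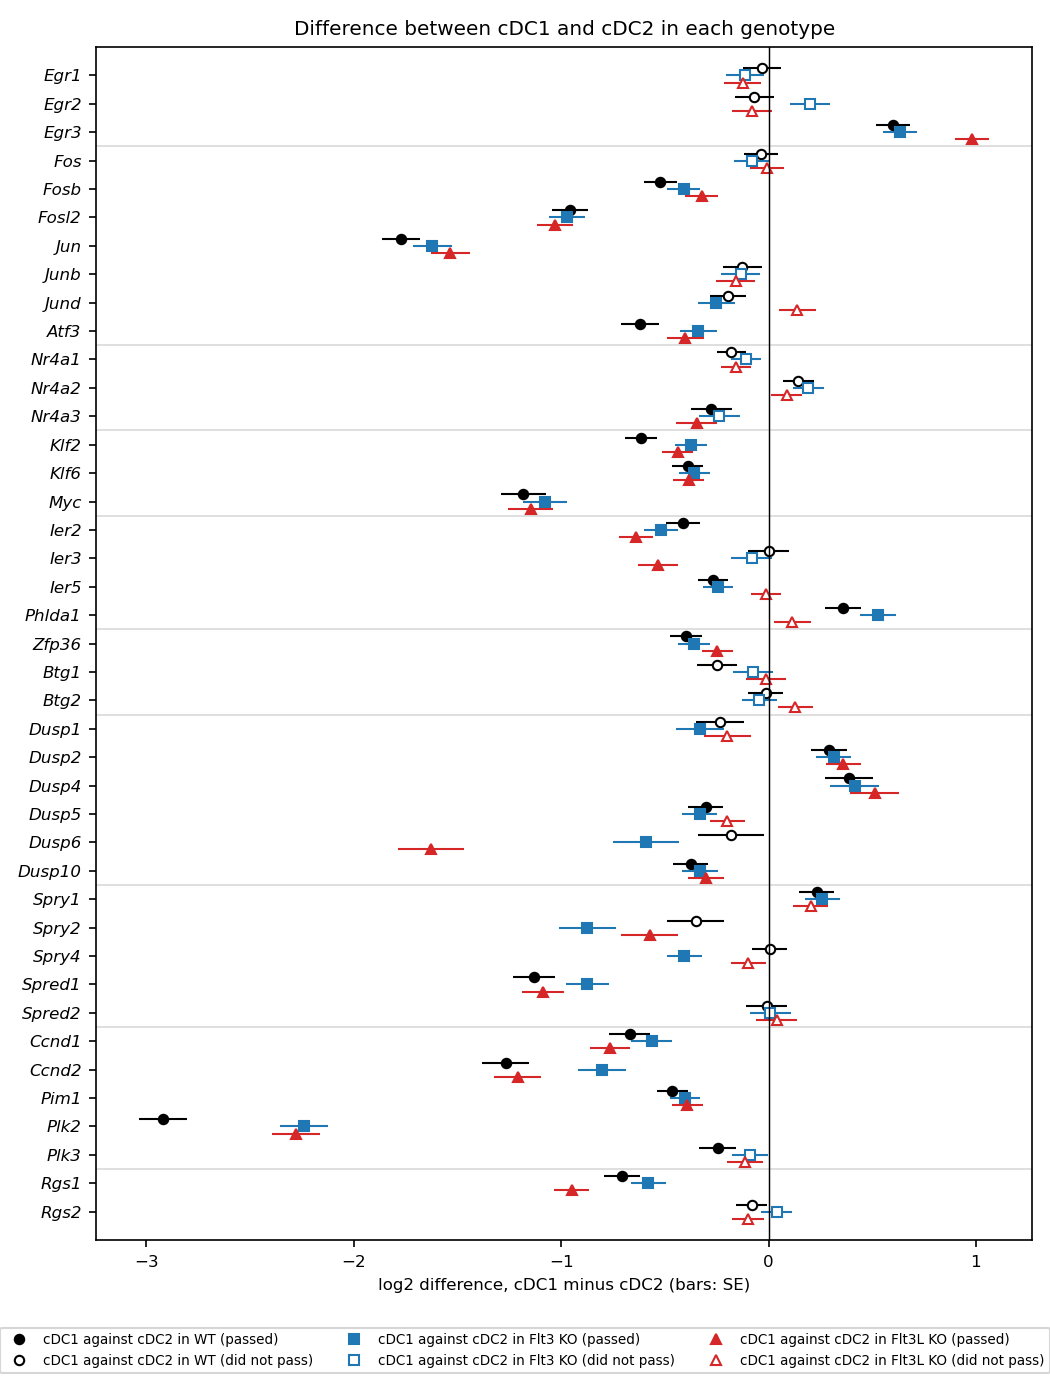
Log2 difference of cDC1 minus cDC2 (x axis) for each of the 41 genes (y axis, grouped by role), with bars of 1 standard error from limma; black circles are WT, blue squares Flt3 KO and red triangles Flt3L KO, filled where the adjusted p was under 0.05. Plk2 lies farthest to the left in all 3 genotypes, from -2.92 to -2.24, Egr3 lies to the right, and the Dusp6 points spread from -0.18 in WT to -1.63 in Flt3L KO.

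Genes outside the 41 moved with the branches as well. Of 32 tested stress and dissociation response genes, 8 were higher and 21 lower in cDC1 in the average, against 28.1% and 23.5% of all genes. The median of these 32 genes was -0.50. Their summed intensity was 27049 to 28014 on the WT cDC1 arrays and 37225 to 37609 on the WT cDC2 arrays, and their part in the differences above was not tested. The summed intensity of 10 macrophage markers was 612 to 629.6 in WT cDC1 and 733 to 757 in WT cDC2.

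Loss of the FLT3 receptor was compared with WT within each branch. None of the 41 genes passed in cDC1, where limma called 0.0803% of all genes, or in cDC2, where it called 0.107%. At an unadjusted p under 0.05 there were 7 genes in cDC1 and 7 in cDC2, against 12.5% and 7.28% of all genes. In cDC1 33 of the 41 log2 differences were above 0, with a median of 0.083 against -0.002 for all genes and 49.4% of all genes above 0; in cDC2 28 of 41 were above 0, against 54.0% of all genes. Of 9 tested macrophage markers, C1qa and Vcam1 were higher in Flt3 KO cDC2, and of 10 cDC2 markers Cd209a was higher in Flt3 KO cDC1 (0.92 ± 0.13). The stress and dissociation list had medians of 0.07 in cDC1 and 0.07 in cDC2, and the part of these lists was not tested.

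Plk2 came closest to the threshold. On the cDC1 arrays it was at 73.2 and 94.2 in WT and 136 and 134 in Flt3 KO. Both Flt3 KO arrays were above both WT arrays, and the difference was 0.70 ± 0.12 at an adjusted p of 0.0519. The Plk2 difference in cDC2 was 0.02 ± 0.12. Spry4, a dim Sprouty gene, had intensities of 52.3 and 46.4 in WT cDC1 and 39.9 and 37.8 in Flt3 KO cDC1, a difference of -0.34 ± 0.08 (adjusted p = 0.197). Jun had 849 and 982 in WT cDC1 against 1171 and 1164 in Flt3 KO cDC1, for 0.35 ± 0.09 (adjusted p = 0.222). Klf2 had 232 and 241 against 301 and 274, for 0.28 ± 0.08 (adjusted p = 0.232). These genes were picked by their small p-values, so the lack of overlap between their arrays adds no support. Their adjusted p-values missed the threshold. Without replicate 2 of WT cDC1, 3 genes passed in cDC1: Jun, Spry4 and Plk2. With a trended and robust variance prior Plk2 passed alone.

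In cDC2 the smallest p-values belonged to other genes. Ccnd2 was at 677 and 681 in WT and 568 and 502 in Flt3 KO cDC2, a difference of -0.35 ± 0.11 (adjusted p = 0.456). Dusp4 was at 108 and 96.6 in WT and 112 and 149.8 in Flt3 KO, a difference of 0.35 ± 0.12 (adjusted p = 0.466). Egr1 was at 477 and 465 in WT and 576 and 551 in Flt3 KO, a difference of 0.26 ± 0.09 (adjusted p = 0.505). The Flt3 KO arrays of Dusp4 lay farther from each other than the lower of them lay from WT. Ccnd1 gave -0.24 ± 0.10 (adjusted p = 0.589).

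Averaging the receptor effect over both branches, which treats cDC1 and cDC2 arrays as independent, gave no call in limma either, against 0.254% of all genes; 11 of the 41 had an unadjusted p under 0.05, as did 10.2% of all genes. The smallest p-values were those of Dusp4 (0.36 ± 0.08, adjusted p = 0.130), Plk2 (0.36 ± 0.08), Jun (0.28 ± 0.07) and Egr1 (0.22 ± 0.06). Without replicate 2 of WT cDC1, Egr1, Jun and Plk2 passed in this average, and without replicate 1 of Flt3 KO cDC2, Dusp4 did. With the trended and robust prior Jun passed. In limma the receptor effect did not differ past the threshold between cDC2 and cDC1 for any of the 41 genes or any other gene (0%), with 6 of the 41 and 8.97% of all genes at an unadjusted p under 0.05. The nearest were Plk2 (-0.68 ± 0.16, adjusted p = 0.376), Spry4 (0.41 ± 0.12), Ccnd2 (-0.46 ± 0.16) and Spry2 (0.52 ± 0.19). Without replicate 2 of WT cDC1, Plk2 passed this test.

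Loss of the ligand was compared with WT in the same way, and both knockouts share the WT arrays. In Flt3L KO cDC1 Plk2 rose, and Dusp6, Ier3 and Btg2 fell: 1 of 41 genes was higher, against 0.776% of all genes, and 3 were lower, against 0.415%. The median of the 41 genes was -0.12, against -0.012 for all genes. The summed intensity of the stress and dissociation list was 25099 to 26069 on the Flt3L KO arrays and 27049 to 28014 on the WT arrays of cDC1. Of 10 cDC1 markers Tlr3 was lower (-0.69 ± 0.14, adjusted p = 0.0455), and of 3 tested NK cell markers Klrk1 was higher (0.49 ± 0.11, adjusted p = 0.0494). The part of these lists in the differences was not tested.

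Dusp6, the cytoplasmic phosphatase that feeds back on ERK, had cDC1 intensities of 225 and 247 in WT, 205 and 179.8 in Flt3 KO and 122 and 96.6 in Flt3L KO. Both Flt3L KO arrays were well below the other 4, and the difference from WT was -1.12 ± 0.16, or 2.17-fold lower (adjusted p = 0.00569). Ier3 was at 118 and 125 in WT, 115 and 121 in Flt3 KO and 74.7 and 77.5 in Flt3L KO in cDC1. Again the Flt3L KO arrays stood below all others, and Ier3 fell by 0.67 ± 0.10, or 1.60-fold (adjusted p = 0.00648). Btg2, an antiproliferative gene that speeds mRNA deadenylation, was at 2001 and 2100.1 in WT, 2063 and 1946 in Flt3 KO and 1485 and 1654 in Flt3L KO in cDC1, lower in Flt3L KO by 0.39 ± 0.08 (adjusted p = 0.0494). Plk2 was 1.88-fold higher in Flt3L KO cDC1 than in WT, by 0.91 ± 0.12 (adjusted p = 0.00344), and both of its Flt3L KO arrays, given above, exceeded every other cDC1 array. Egr2 just missed, at -0.43 ± 0.10 (adjusted p = 0.0502), as did Klf6 at 0.32 ± 0.07 (adjusted p = 0.0624).

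Without replicate 1 of WT cDC1, the array that stood apart, Plk2 was at 0.73, Dusp6 at -1.19 and Ier3 at -0.71, all called, while Btg2 was at -0.42 (adjusted p = 0.0843). Without replicate 1 of Flt3L KO cDC1, Dusp6 and Plk2 passed and Ier3 had an adjusted p of 0.0858. Without replicate 2 of that group, Ier3 and Plk2 passed and Dusp6 had an adjusted p of 0.0534. Btg2 lost its call without any of the 4 arrays compared, with adjusted p-values of 0.0700 without replicate 2 of WT cDC1, and of 0.302 and 0.0845 without replicates 1 and 2 of Flt3L KO cDC1. Btg2 was also lost with no filter on dim genes (adjusted p = 0.0703). A fit of these 4 arrays alone, with fewer residual degrees of freedom, called none of the 41 genes, and the trended and robust prior called 11. The share of all genes that this prior called is not given here.

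The stretches of 250 bases before the transcription starts of Dusp6, Ier3, Btg2, Plk2 and Egr2, all called for ligand loss, are shown. They come from RefSeq on build GRCm38.p6 and are written 5′ to 3′ on the gene's strand, with matches in capitals to a CArG box, the binding element of serum response factor, to the cAMP response element (CRE, TGACGTCA), to the AP-1 element (TGANTCA), to an ETS element (CCGGAAG) or to the EGR element (GCGNGGGCG), searched on both strands. The windows lie at chr10:99262981-99263230 on the plus strand for Dusp6, chr17:35821463-35821712 on the plus strand for Ier3, chr1:134079156-134079405 on the minus strand for Btg2, chr13:110394794-110395043 on the plus strand for Plk2 and chr10:67537316-67537565 on the plus strand for Egr2. RefSeq gives 5 windows for Egr2, and the one shown is the first along the chromosome that holds a match. Egr3, also called for ligand loss, had no window to show.
Egr2: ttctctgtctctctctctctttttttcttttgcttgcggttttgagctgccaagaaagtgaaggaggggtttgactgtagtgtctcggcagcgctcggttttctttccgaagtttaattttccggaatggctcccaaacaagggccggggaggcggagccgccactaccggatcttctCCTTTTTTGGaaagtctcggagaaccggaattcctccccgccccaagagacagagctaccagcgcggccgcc
Btg2: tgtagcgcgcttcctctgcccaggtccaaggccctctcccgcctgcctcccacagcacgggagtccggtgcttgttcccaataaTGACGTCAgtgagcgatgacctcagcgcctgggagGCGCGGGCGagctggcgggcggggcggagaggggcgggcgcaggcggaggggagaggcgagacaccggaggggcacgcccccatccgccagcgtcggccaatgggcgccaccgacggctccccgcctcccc
Plk2: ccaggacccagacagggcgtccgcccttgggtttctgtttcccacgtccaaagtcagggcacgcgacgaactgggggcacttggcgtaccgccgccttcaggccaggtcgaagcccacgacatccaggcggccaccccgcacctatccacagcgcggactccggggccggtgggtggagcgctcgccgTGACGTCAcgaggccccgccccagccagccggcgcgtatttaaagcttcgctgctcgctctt
Ier3: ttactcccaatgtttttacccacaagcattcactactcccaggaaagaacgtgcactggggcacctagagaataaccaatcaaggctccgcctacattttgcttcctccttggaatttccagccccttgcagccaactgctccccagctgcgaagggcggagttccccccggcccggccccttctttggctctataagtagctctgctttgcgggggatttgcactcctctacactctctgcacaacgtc
Dusp6: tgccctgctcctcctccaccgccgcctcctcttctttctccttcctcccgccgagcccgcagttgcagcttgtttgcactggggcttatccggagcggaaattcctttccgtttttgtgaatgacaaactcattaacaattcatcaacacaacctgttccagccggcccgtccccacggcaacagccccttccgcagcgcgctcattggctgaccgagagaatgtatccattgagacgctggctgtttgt

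Egr2 holds a CArG box at positions 179 to 188 of its window, with its last base 63 bases before the start. Btg2 holds a CRE at positions 85 to 92 and an EGR element at 120 to 128. Plk2 holds a CRE at positions 189 to 196. The windows of Ier3 and Dusp6 hold none of these letters, which says nothing of the factors elsewhere. No matches overlap in the windows shown. Over the 31 of 41 genes with a window in the table, 3 (9.68%) held a CArG box, namely Dusp5, Egr2 and Zfp36, against 1.62% of 27025 genes. A CRE was found for Btg2, Dusp1 and Plk2 (9.68%, against 1.77% of all genes). The EGR element was found for 9 genes (29.0%, against 5.33%): Btg2, Dusp2, Fosb, Fosl2, Klf2, Nr4a1, Nr4a2, Rgs2 and Zfp36. The ETS element was found for Zfp36 (3.23%, against 7.83%) and the AP-1 element for none of the 31, against 7.82% of all genes. A gene was counted if any of its windows held the letters, and a match is a description of sequence, not a measured site.

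In Flt3L KO cDC2 the genes that fell were Egr3, Btg2 and Egr2, and none rose: 3 of 41 were lower, against 0.91% of all genes, and 0 higher, against 1.04%. The stress and dissociation list summed to 35832 to 37007 in Flt3L KO and 37225 to 37609 in WT cDC2. Of its 32 tested genes 4 were higher and 0 lower, against the same shares of all genes, with a median of -0.02. The part of this list was not tested. Egr3, which with Egr2 forms a pair of EGR factors known for restraining lymphocyte activation, was at 371 and 355 in WT, 366 and 382 in Flt3 KO and 245 and 235 in Flt3L KO in cDC2. The Flt3L KO arrays were below every other array of the series, and Egr3 fell by 0.59 ± 0.08, or 1.51-fold (adjusted p = 0.00369). In cDC1 Egr3 was at 572 and 530.0 in WT, 566 and 595 in Flt3 KO and 448 and 504 in Flt3L KO, a difference from WT of -0.21 ± 0.08 that did not pass. Btg2 was at 1970.3 and 2173 in WT, 2138 and 1996 in Flt3 KO and 1449 and 1416 in Flt3L KO in cDC2, below all other groups in Flt3L KO, and fell by 0.53 ± 0.08 (adjusted p = 0.00787). Egr2 was at 2535 and 2533 in WT, 2202 and 2442 in Flt3 KO and 1761 and 2029 in Flt3L KO in cDC2 and at 2319 and 2522 in WT, 2644 and 2688 in Flt3 KO and 1676 and 1911 in Flt3L KO in cDC1. In both branches the Flt3L KO arrays were the lowest, and the Egr2 difference from WT was -0.42 ± 0.10 in cDC2 (adjusted p = 0.0429).

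Egr3 kept its call without any of the 4 arrays compared. Without replicate 2 of WT cDC2, Btg2 had an adjusted p of 0.0993 and Egr2 of 0.231; without replicate 1 of Flt3L KO cDC2 they had 0.0625 and 0.279. Egr2 was also lost without replicate 1 of WT cDC2 (adjusted p = 0.208) and with no filter on dim genes (adjusted p = 0.0578). The trended and robust prior called 7 of the 41 genes, and its share of all genes is not given here. Macrophage markers moved with this group: 5 of 9 tested were higher in Flt3L KO cDC2 than in WT cDC2 (C1qa, C1qb, C1qc, Vcam1 and Mertk). The summed intensity of the list of 10 was 733 to 757 in WT cDC2, 1049.5 to 1189.8 in Flt3 KO cDC2 and 1870.2 to 2289 in Flt3L KO cDC2, and 635 to 663 in Flt3L KO cDC1. Cd5l, a marker of red pulp macrophages, was at 23.0 and 29.1 in Flt3L KO cDC2 and Cd163 at 29.2 and 28.1. Both were near the lower quartile of the arrays, and no marker was at 0. Spic, of the same list, was at 139 and 142 in WT cDC2 and at 195 and 311 in Flt3L KO cDC2. Spic was not among the 5 called. Of 6 tested monocyte markers 3 were higher (Fcgr4, Treml4 and Ace), and Ccr2, Fcgr1 and Cd177 were not among them. The list summed to 1128 to 1245 in WT cDC2 and 1827 to 2661 in Flt3L KO cDC2. In WT cDC1 the sum was higher, at 2400 to 2501. Treml4 was at 1993 and 2074 in WT cDC1, against 331 and 424 in WT cDC2. Ccr2 was at 105 and 129 in WT cDC2 and at 121 and 105 in Flt3L KO cDC2. Of 10 cDC2 markers 2 were lower, Cd209a (-0.98 ± 0.13) and Clec4a4 (-0.70 ± 0.13), and of 10 cDC1 markers 2 were higher, Cadm1 (0.56 ± 0.10) and Irf8 (0.52 ± 0.08). Of 6 tested neutrophil markers Csf3r was higher (0.68 ± 0.11). The part of any of these lists in the differences of Egr3, Btg2 and Egr2 was not tested.

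**Figure D2:**
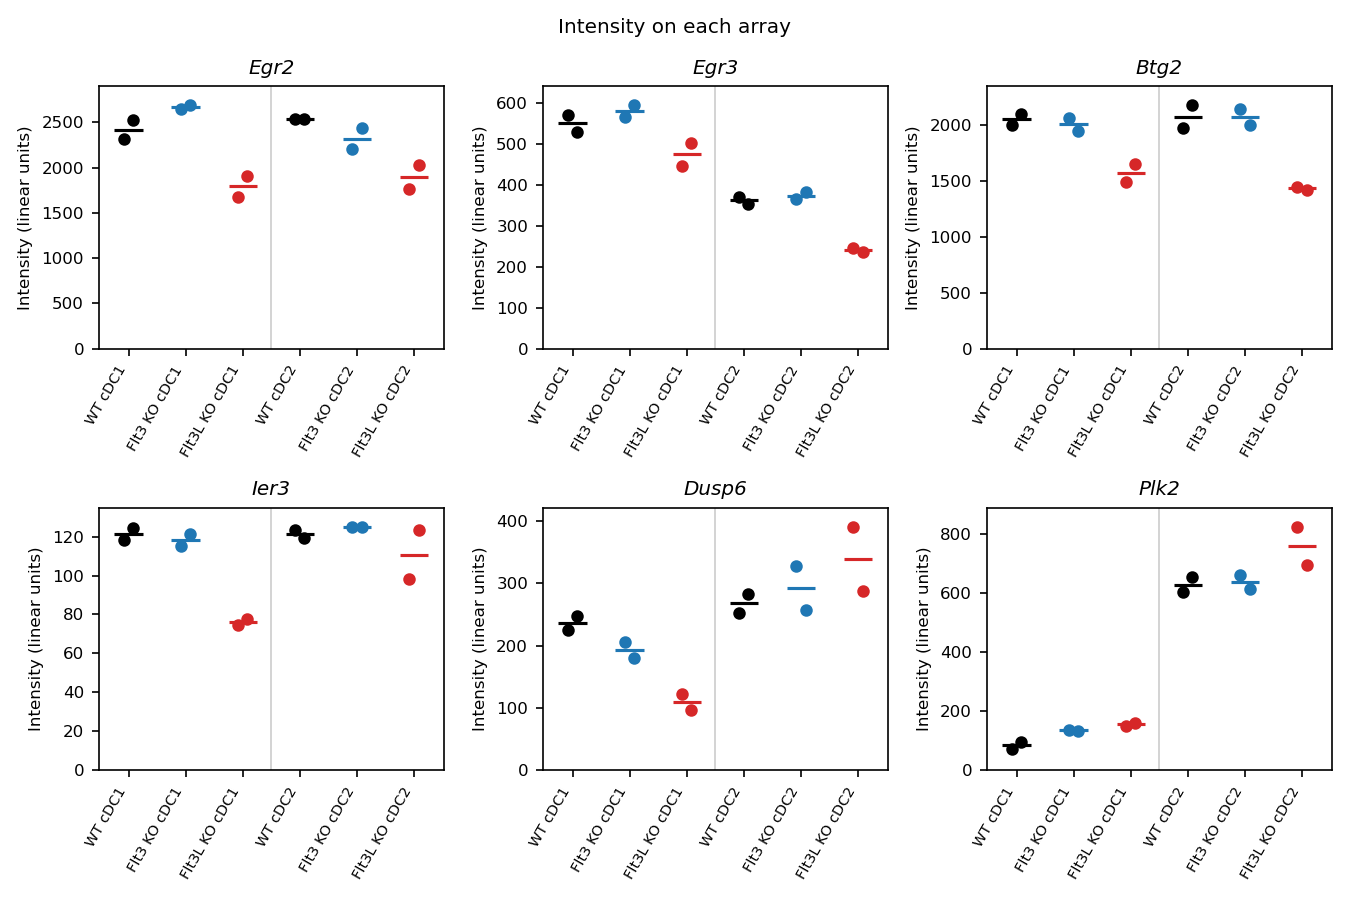
Intensity in linear units (y axis, from 0) of Egr2, Egr3, Btg2, Ier3, Dusp6 and Plk2 on each of the 12 arrays, by group (x axis); points are arrays and lines the mean of 2, in black for WT, blue for Flt3 KO and red for Flt3L KO. Dusp6 and Ier3 are lowest in Flt3L KO cDC1, Egr3 is lowest in Flt3L KO cDC2, and Egr2 and Btg2 are low in Flt3L KO of both branches.

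The ligand effect on Dusp6 differed between the branches. Dusp6 was at 253 and 283 in WT, 327 and 256 in Flt3 KO and 390.3 and 287 in Flt3L KO in cDC2, a difference from WT of 0.32 ± 0.16 that did not pass (adjusted p = 0.368), while it fell in cDC1. The effect in cDC2 minus that in cDC1 was 1.44 ± 0.22 on the log2 scale (adjusted p = 0.0148). It was the 1 call among the 41 genes, against 0.495% of all genes. Without replicate 1 of WT cDC2 the adjusted p was 0.0854, and without replicate 1 of Flt3L KO cDC2 it was 0.0551. The next smallest p-values were those of Plk2 (-0.64 ± 0.16, adjusted p = 0.116), Ier3 (0.53 ± 0.14, adjusted p = 0.120) and Egr3 (-0.38 ± 0.12, adjusted p = 0.177), none of which passed. Without replicate 2 of WT cDC1, or with the trended and robust prior, Plk2 passed beside Dusp6.

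Averaged over both branches, 9 of the 41 genes fell in Flt3L KO mice and 3 rose, against 1.33% and 1.67% of all genes. Those that fell were Btg2 (-0.46 ± 0.06), Egr2 (-0.43 ± 0.07), Ier3 (-0.41 ± 0.07), Egr3 (-0.40 ± 0.06), Myc (-0.37 ± 0.08), Nr4a3 (-0.30 ± 0.07), Plk3 (-0.30 ± 0.06), Btg1 (-0.28 ± 0.07) and Fosl2 (-0.25 ± 0.06). Those that rose were Plk2 (0.59 ± 0.08), Dusp4 (0.34 ± 0.08) and Klf6 (0.32 ± 0.05). By branch the Plk2 difference was 0.91 in cDC1, which passed, and 0.27 in cDC2, which did not. Adjusted p-values ran from 0.00243 for Btg2 to 0.0496 for Dusp4. The median of the 41 genes was -0.10, against 0.004 for all genes.

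The arrays show how small some of these shifts were. Klf6 was at 2261 and 2158 in WT, 2442 and 2473 in Flt3 KO and 2705 and 2806 in Flt3L KO in cDC1. In cDC2 Klf6 was at 2901 and 2882 in WT, 3091 and 3212 in Flt3 KO and 3445 and 3753 in Flt3L KO, and in both branches the Flt3L KO arrays were the highest. Dusp4 was at 127 and 140.2 in WT, 179 and 167 in Flt3 KO and 176 and 175 in Flt3L KO in cDC1 and at 108 and 96.6 in WT, 112 and 149.8 in Flt3 KO and 123 and 123 in Flt3L KO in cDC2. Dusp4 was thus above WT in Flt3L KO, and the Flt3 KO arrays were spread around the same levels. Myc, whose arrays are given above, was lowest in Flt3L KO in both branches, with the cDC2 arrays apart from each other.

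Nr4a3 was at 1773 and 1758 in WT, 1794 and 1823 in Flt3 KO and 1263 and 1544 in Flt3L KO in cDC1 and at 2134 and 2139.9 in WT, 2037 and 2229 in Flt3 KO and 1688 and 1868 in Flt3L KO in cDC2. Plk3 was at 1206 and 1332 in WT, 1434 and 1433 in Flt3 KO and 1040.1 and 1116 in Flt3L KO in cDC1 and at 1419.5 and 1589 in WT, 1569 and 1484 in Flt3 KO and 1220.0 and 1113 in Flt3L KO in cDC2. For Nr4a3 and Plk3 the Flt3L KO arrays were the lowest of each branch. Btg1, the relative of Btg2, was at 799.6 and 767 in WT, 818 and 854 in Flt3 KO and 643 and 763 in Flt3L KO in cDC1 and at 928 and 934 in WT, 881 and 877 in Flt3 KO and 654 and 761 in Flt3L KO in cDC2. Its Flt3L KO arrays were the lowest of each branch, but replicate 2 in cDC1 lay close to WT. Ier3 in cDC2 was at 123 and 119.5 in WT, 125 and 125 in Flt3 KO and 98.2 and 123 in Flt3L KO, where replicate 1 of Flt3L KO was low and replicate 2 lay within the WT range. Fosl2, given above, was lowest in Flt3L KO in both branches.

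Leaving out any of the 8 arrays kept the averaged calls of Egr2, Egr3, Ier3, Btg2, Klf6 and Plk2. The other averaged calls were lost in some of these fits: Fosl2 and Dusp4 passed in 1 of the 8 fits, Btg1 and Nr4a3 in 2, Myc in 3 and Plk3 in 4. With 12 calls from all arrays, 7 were left without replicate 1 of WT cDC2, and 6 without replicate 2 of WT cDC2, replicate 1 of Flt3L KO cDC1 or replicate 1 of Flt3L KO cDC2. Without replicate 1 of WT cDC1, 9 were left. With all arrays kept, Fosl2 and Btg1 also lost their calls under quantile normalization and with no filter on dim genes. Nr4a3 lost its call under quantile normalization and Dusp4 with no filter. A replicate block lost Fosl2 and Dusp4. A fit of the compared arrays alone lost Fosl2, Btg1, Nr4a3 and Plk3.

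**Figure D3:**
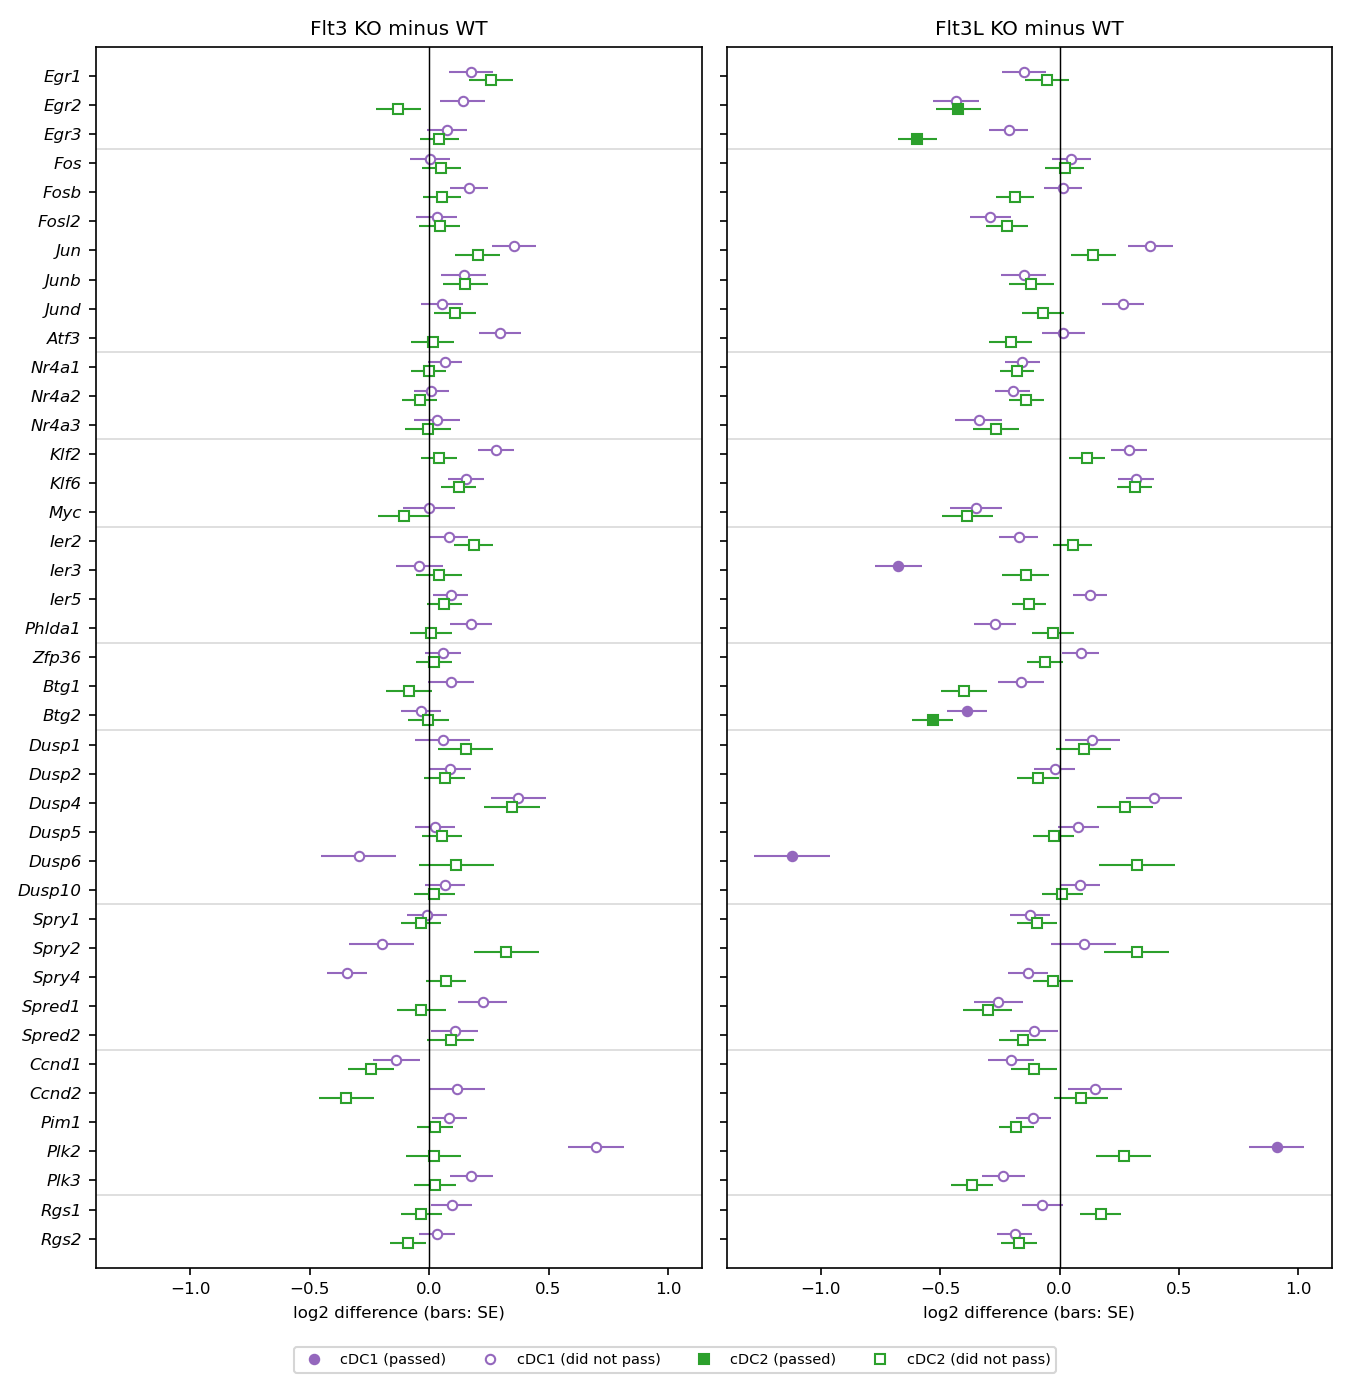
Log2 difference from WT (x axis) of each of the 41 genes (y axis, grouped by role) in Flt3 KO (left) and Flt3L KO (right), with bars of 1 standard error; purple circles are cDC1, green squares cDC2, filled where the adjusted p was under 0.05. No point is filled on the left, and on the right the filled points are Plk2, Dusp6, Ier3 and Btg2 in cDC1 and Egr3, Btg2 and Egr2 in cDC2; both panels share the WT arrays.

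The knockouts were also compared with each other, which uses no WT array. In cDC1 0 of the 41 genes were higher in Flt3L KO than in Flt3 KO, against 0.221% of all genes, and 4 were lower, against 0.662%: Dusp6 (-0.82 ± 0.16, adjusted p = 0.0363), Ier3 (-0.63 ± 0.10, adjusted p = 0.0141), Egr2 (-0.58 ± 0.10, adjusted p = 0.0208) and Phlda1 (-0.45 ± 0.09, adjusted p = 0.0406). Phlda1 was at 83.0 and 93.8 in WT, 106 and 94.1 in Flt3 KO and 73.6 and 72.7 in Flt3L KO in cDC1, and at 68.8 and 68.9 in WT, 69.8 and 68.6 in Flt3 KO and 64.4 and 70.9 in Flt3L KO in cDC2. The Phlda1 arrays of cDC2 overlapped across genotypes, and its Flt3 KO arrays in cDC1 lay above those of WT. In cDC2 0 genes were higher, against 0.461% of all genes, and 2 were lower, against 0.468%: Egr3 (-0.64 ± 0.08, adjusted p = 0.00429) and Btg2 (-0.53 ± 0.08, adjusted p = 0.0151). Plk3 (-0.39 ± 0.09, adjusted p = 0.0643) and Ccnd2 (0.44 ± 0.11, adjusted p = 0.107) had the next smallest p-values. The median of the 41 genes was -0.19 in cDC1 and -0.13 in cDC2, against 0.013 and 0.003 for all genes.

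The calls changed when arrays were left out. In cDC1 no gene passed without replicate 1 or without replicate 2 of Flt3 KO or without replicate 1 of Flt3L KO, and Egr2 alone passed without replicate 2 of Flt3L KO. In cDC2 Egr3 alone passed without replicate 1 of Flt3 KO or replicate 2 of Flt3L KO, and none passed without replicate 2 of Flt3 KO or replicate 1 of Flt3L KO. Phlda1 was also lost with no filter on dim genes (adjusted p = 0.0549). The trended and robust prior called 14 of the 41 genes in cDC1 and 5 in cDC2. The shares of all genes that it called are not given here, so these counts have no background to be set against. In cDC2 5 of 9 tested macrophage markers and 3 of 6 tested monocyte markers were also higher in Flt3L KO than in Flt3 KO, and Cd209a was lower in both branches (-0.71 ± 0.13 in cDC1 and -0.98 ± 0.13 in cDC2). Single markers of cDC1 (Clec9a, -0.71 ± 0.13 in cDC2), cDC2 (Cd4, -0.56 ± 0.10 in cDC2) and B cells (Ms4a1, -1.08 ± 0.13 in cDC1) were lower as well. The part of these markers in the differences was not tested.

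The replicates of 1 group were shifted against each other over many of the 41 genes. In Flt3L KO cDC1 10 of 41 genes were higher on replicate 1 than on replicate 2, with a median log2 difference of -0.095, and in the other groups between 18 and 23 were. The largest gap between replicates was in Dusp6 in both Flt3L KO groups, 0.34 in cDC1 and 0.44 in cDC2 on the log2 scale. It was in Dusp4 in Flt3 KO cDC2 (0.42), Spry2 in WT cDC1 (0.39), Dusp1 in Flt3 KO cDC1 (0.38) and Ccnd1 in WT cDC2 (0.26).

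**Figure D4:**
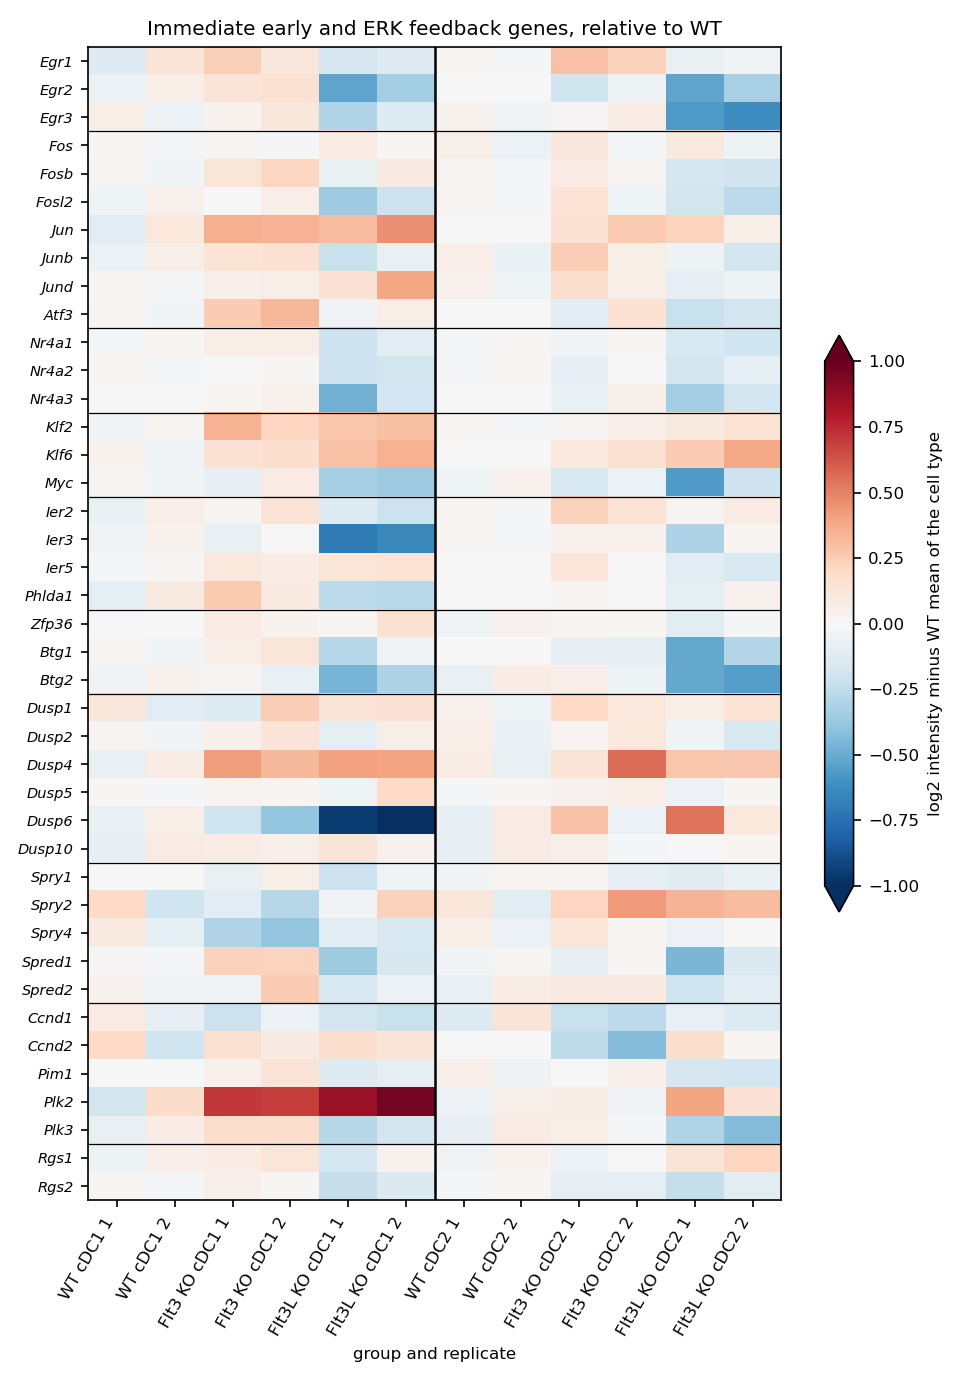
Log2 intensity of each of the 41 genes (rows, grouped by role) on each of the 12 arrays (columns, group and replicate) minus the WT mean of the same branch, coloured from -1 (blue) to 1 (red), with stronger values drawn at the end colours. The Flt3L KO columns hold the darkest blue cells, led by Dusp6 and Ier3 in cDC1 and Egr3 in cDC2, and Plk2 is red in both knockouts of cDC1.

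Upstream of these genes, 36 of 44 listed genes of the RAS, RAF, MEK and ERK pathway were tested. None passed for loss of the receptor in either branch. In Flt3L KO cDC1 1 was higher, Mknk2, a kinase that ERK activates to phosphorylate a translation initiation factor (0.35 ± 0.07, adjusted p = 0.0447). In Flt3L KO cDC2 2 were lower, the RAS activators Rasgrp4 (-0.43 ± 0.07, adjusted p = 0.0112) and Rasgrp3 (-0.45 ± 0.09, adjusted p = 0.0280). Between the branches, averaged over genotypes, 12 were higher and 19 lower in cDC1, against 28.1% and 23.5% of all genes. These genes were led by Rasgrp1 (-2.43), the ETS factor Elk3 (-2.09), Rasgrp3 (1.34) and the ubiquitin ligase gene Cblb (0.84). Of 33 tested relatives of the same gene families, Dusp8, a phosphatase of JNK and p38, was the 1 that passed for loss of the ligand in cDC2, at 0.37 ± 0.07 (adjusted p = 0.0225), and none passed in cDC1. Between the branches 7 relatives were higher and 13 lower in cDC1 in the average, against the same 28.1% and 23.5% of all genes. The relatives were led by Dusp8 (-0.99), Klf10 (-1.12), Klf4 (-1.19) and Dusp16 (-0.90).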

How the data were processed

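RNA of 12 sorted samples was labelled and hybridised to GeneChip arrays, per the labels' protocols. The deposited table gives each probe set a linear intensity on every array; the authors' summarisation and normalisation are not given in the sources used here. Log2 was taken of the deposited intensities. Of 30177 probe sets, 21789 named exactly 1 gene in the platform annotation; 1621 with several genes and 6767 unnamed ones were left out. A gene was read from its probe set with the highest mean; of the 41 genes, Spred2 had more than 1. The lowest 0.25 of 19938 genes by mean log2 intensity were left out, leaving 14953. Precision is limited by the number of arrays: the median SE was 0.0937 within a branch or genotype, 0.0541 and 0.0663 for averages over genotypes and branches, and 0.133 for differences of effects.

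One mean per group was fitted in limma 3.58.1 (R 4.3.3) with 6 residual degrees of freedom, with Benjamini-Hochberg adjustment over all tested genes within a comparison and a threshold of 0.05. The script was tested on simulated data. Groups came from the sample labels. The members and lists were chosen with earlier results of these data known. Genes called in a knockout comparison, and the 12 largest averaged differences between branches, are given array by array; where under 3 were called, the 4 smallest p-values are given; of other lists, up to 4 called genes are named. Genes that passed only under an alternative were named with their values known. The alternatives tried were leaving out single arrays, a replicate block, fitting the compared arrays alone, averaging probe sets per gene, keeping dim genes, quantile normalization, and a variance prior with trend and robust estimation. Promoter windows came from RefSeq (GRCm38.p6) for 31 of the 41 genes.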

Additional observations from a re-analysis of the deposited data

Results flagged for a closer look

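The effect of ligand loss on Dusp6, the ERK phosphatase, differed between the branches by the test of that difference in limma. It was 0.32 ± 0.16 (SE) in cDC2 and -1.12 ± 0.16 (SE) in cDC1, so the cDC2 effect minus the cDC1 effect was 1.44 ± 0.22 (SE) on the log2 scale, with an adjusted p of 0.0148. Over the alternatives its adjusted p ran from 0.00636 to 0.0854.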

How the results depend on the processing

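Of 38 values of named genes, none changed sign under any alternative; their calls held in 194 cases and were lost in 22 under the alternatives other than leaving out 1 array, and held in 231 and were lost in 69 without 1 array. The 12 largest differences between branches, picked by their size, kept their calls throughout and are counted among the 38. Every call lost among the 38 was therefore that of a knockout comparison, and these held less often than the pooled counts show. Smaller branch differences were not among the 38, and some of their calls were lost too, as the counts without 1 array below show. With all arrays, 5 genes were higher and 20 lower in cDC1 in WT, 5 and 23 in Flt3 KO and 3 and 20 in Flt3L KO. A trended and robust variance prior called 1 gene for Flt3 KO in cDC1 and 1 in the Flt3 KO average, 11 for Flt3L KO in cDC1, 7 in cDC2, 14 and 5 for Flt3L KO against Flt3 KO in cDC1 and cDC2, and 2 for the difference of Flt3L KO effects; the cause was not tested. The arrays compared alone, with fewer arrays, called 0 for Flt3L KO in cDC1. Leaving out 1 array gave 0 to 3 calls for Flt3 KO in cDC1, 0 to 3 in the average and 0 to 1 for the difference of effects. It gave 2 to 4 for Flt3L KO in cDC1, 1 to 4 in cDC2, 6 to 10 in the average and 0 to 2 for the difference of effects, and 0 to 1 and 0 to 1 for Flt3L KO against Flt3 KO in cDC1 and cDC2. For cDC1 against cDC2 it gave 19 to 22 in WT, 21 to 24 in Flt3 KO, 19 to 22 in Flt3L KO and 31 to 35 in the average. A group left with 1 array was assumed to vary like the others.

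The labels do not say whether samples with equal replicate numbers share animals. The differences between replicates of the 2 branches of a genotype correlated at 0.159 (WT), 0.0885 (Flt3 KO) and 0.146 (Flt3L KO). Between groups of different genotypes the correlations ran from -0.199 to 0.172. Such correlations cannot tell whether both branches came from the same mice. With a replicate block the counts were 23, 26, 23 and 32 for the branches in WT, Flt3 KO, Flt3L KO and the average, 4 and 3 for Flt3L KO in cDC1 and cDC2, 4 and 2 for Flt3L KO against Flt3 KO in cDC1 and cDC2, 1 for the difference of Flt3L KO effects, and 10 in the Flt3L KO average. Equal counts did not mean the same genes: in cDC1 the block called Egr2 and not Btg2 (adjusted p = 0.0683) for Flt3L KO against WT, and Spred1 and not Phlda1 (adjusted p = 0.0545) for Flt3L KO against Flt3 KO. In the Flt3L KO average it called neither Fosl2 nor Dusp4. The shares of all genes called with the block are not given here. With 2 arrays per group, effects near the standard error cannot be resolved.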

Other observations

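The stress and dissociation list, beyond the 41 genes, held 32 tested genes. Hsph1, a heat shock protein gene, fell in Flt3 KO cDC1 by 0.74 ± 0.12 (SE) (adjusted p = 0.0427), and no other gene of the list passed for receptor loss in cDC1 or cDC2. In Flt3L KO cDC1 the chemokine genes Ccl3 (-0.96 ± 0.16 (SE)) and Ccl4 (-0.57 ± 0.11 (SE)) fell, and Cd69 (0.96 ± 0.13 (SE)), an early activation marker, and Ptgs2 (0.55 ± 0.12 (SE)), the inducible cyclooxygenase gene, rose. In Flt3L KO cDC2 4 genes of the list rose and none fell, against 1.04% and 0.91% of all genes. Those that rose included Ddit3 (0.59 ± 0.09 (SE)), a factor of the unfolded protein response, and Cxcl2 (0.79 ± 0.13 (SE)), a neutrophil chemokine. Socs3 (0.48 ± 0.10 (SE)), a brake on cytokine signalling, and Hmox1 (0.71 ± 0.16 (SE)), a heme-degrading enzyme, were the others. The ligand effect differed between the branches for Cxcl2 (1.34 ± 0.19 (SE), adjusted p = 0.00808) and Cd69 (-1.13 ± 0.19 (SE), adjusted p = 0.0214).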
